A study of Mus musculus with 18 samples.

Results

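Bexarotene was compared with vehicle in cells isolated from the brains of aged mice that had no stroke. The comparison rests on 6 of the 18 libraries in the series, 3 of bexarotene-treated and 3 of vehicle-treated mice, and they were chosen by the age, treatment and disease state in their labels. All of these mice were male and wild type, 18 to 20 months old. Bexarotene was injected into the peritoneum at 5 mg/kg in 3% DMSO, with a first dose 24 hours after a surgery and 2 further daily doses, and controls received 3% DMSO in saline. The labels give day 3 as the time of collection, and no label says whether the mice without stroke had a surgery. Brains were dissociated with papain, passed over Percoll, depleted of Ly6G-bearing cells on magnetic beads and enriched for CD11b-bearing cells, so each library is a bulk sample of microglia and macrophages. Each sample is labelled as a biological replicate. The remaining 12 libraries came from mice 2 to 4 months old given bexarotene or vehicle and from aged mice given either agent after an ischemic stroke.

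Bexarotene is a ligand of the retinoid X receptors (RXR), nuclear receptors that bind DNA as heterodimers with partner receptors. With the liver X receptors (LXR), which sense oxysterols, RXR acts on genes of cholesterol export and lipid synthesis. With the retinoic acid receptors (RAR) it acts on genes of retinoid metabolism and differentiation, and with the peroxisome proliferator-activated receptors (PPAR) on genes of fatty acid oxidation. Heterodimers with LXR and PPAR are called permissive because a ligand of RXR alone can activate them. In microglia and macrophages these dimers are best known for lipid handling, phagocytosis and restraint of inflammatory genes.

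The 6 libraries held 9346466 to 11852638 counts with bexarotene and 10246885 to 10656746 counts with vehicle. They carried the RNA of microglia: P2ry12, a purinergic receptor that marks resident microglia, stood at 8014, 9900.4 and 8174 CPM (counts scaled by library size and the TMM factor) in the bexarotene libraries and at 9850.5, 10592 and 10128 CPM in the vehicle libraries. Markers of neurons summed to 1.53 to 2.84 CPM with bexarotene and 1.06 to 2.35 CPM with vehicle, and markers of T and NK cells to 4.56 to 6.69 CPM and 5.71 to 6.91 CPM. The first principal component of the 6 libraries (34.7% of the variance) did not separate the treatments. The second (20.4%) did, at 12.1 to 37.2 with bexarotene against -34.3 to -11.1 with vehicle. Vehicle library 1 stood apart in its choroid plexus markers, 2721 CPM against 209 and 715 CPM in vehicle libraries 2 and 3, and bexarotene library 1 was also the highest of its group, at 1796 CPM against 525 and 907 CPM. Vehicle library 3 had the highest level of all 12 heat shock genes listed. Because these are bulk samples, fewer cells of a type and less RNA per cell cannot be told apart.

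Bexarotene changed 40 of 15528 tested genes in aged mice (0.258%), by edgeR's quasi-likelihood test at a Benjamini-Hochberg adjusted p below 0.05. Of these 37 were higher (0.238%) and 3 lower (0.0193%). The median log2 fold change of the 37 genes was 1.05, and 20 of them changed by more than 2-fold. The median of all tested genes was -0.00. At an unadjusted p below 0.05 there were 1012 genes (6.52%), and 1831 genes (11.8%) had libraries that did not overlap between the treatments (6.47% higher and 5.32% lower), the 40 called genes among them. Many calls lay close to the threshold, with 17 of the 40 at an adjusted p above 0.04. The count fell when single libraries were left out, which also leaves fewer libraries to test with. It was 35, 16 and 10 without bexarotene library 1, 2 and 3, and 18, 12 and 9 without vehicle library 1, 2 and 3. Of the 40 calls 32 were lost in at least 1 of these fits. Abcg1, St3gal5, Eepd1, Mmd and Camkk1 were called under each of the 19 alternative settings, and Tgm2, Epha2 and Rasgef1b under 18 of them.

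**Figure D1:**
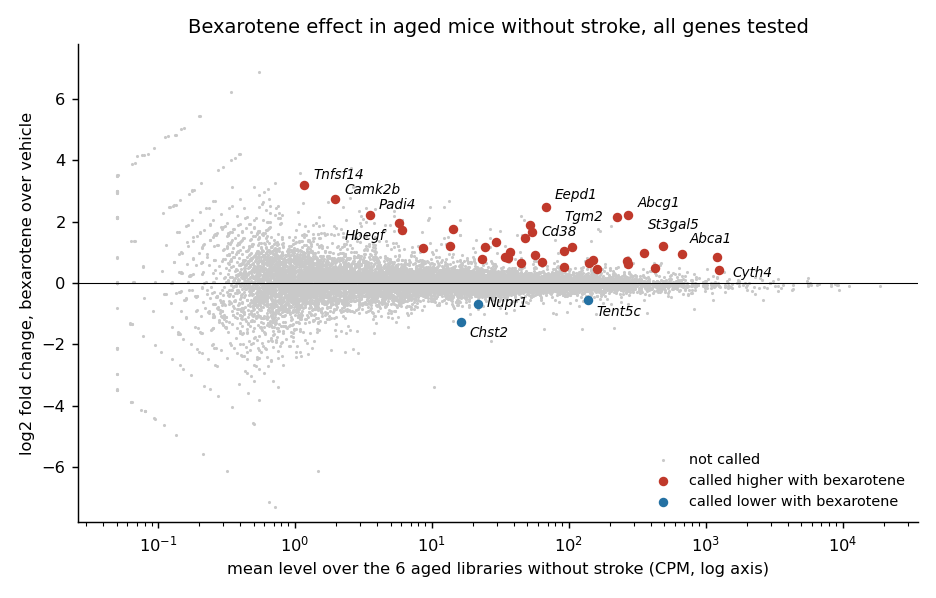
Each point is 1 of 15528 genes tested, placed by its mean level over the 6 aged libraries without stroke (CPM, log axis, levels under 0.05 CPM drawn at 0.05) and its log2 fold change, bexarotene over vehicle. The 37 genes called higher lie above 0 at all levels from about 1 CPM upward and reach a log2 fold change of 3.21 (Tnfsf14), and the 3 called lower reach -1.28 (Chst2).

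The exporters of cellular cholesterol rose. Abcg1, a transporter that passes cholesterol to high-density lipoprotein and a textbook LXR target, had 383, 453 and 514 CPM in the bexarotene libraries, against 99.4, 100.3 and 87.7 CPM in the vehicle libraries. The lowest bexarotene library was thus far above the highest vehicle library. The log2 fold change was 2.23 ± 0.14 (SE from the fit of all 18 libraries, 3 per group, adjusted p 3.18e-08). Abca1, which loads cholesterol onto apolipoprotein A-I, had 901, 774 and 992 CPM with bexarotene and 499.9, 466 and 410.2 CPM with vehicle. Its groups did not overlap either (log2 fold change 0.96 ± 0.14, adjusted p 0.00366), although the adjusted p was above 0.05 without vehicle library 3 and with neutrophil markers or heat shock genes as a covariate. Eepd1, a membrane-associated nuclease-like protein that promotes cholesterol efflux in macrophages, reached 88.0, 113 and 145 CPM with bexarotene, against 18.0, 21.04 and 22.4 CPM with vehicle (log2 fold change 2.49 ± 0.27, adjusted p 0.000301). The ubiquitin ligase Rnf145, which targets the rate-limiting enzyme of cholesterol synthesis for degradation, had 305, 365 and 312 CPM and 207, 226 and 212 CPM (log2 fold change 0.61 ± 0.10, adjusted p 0.00852). This was a smaller shift with no overlap between the groups.

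The LXR-RXR list as a whole was mixed. Abcg1 and Abca1 were called among its 16 tested members and none was called lower, and the median log2 fold change of the list was 0.10, against -0.00 for all genes. Arl4c, a small GTPase, stood at 58.1, 76.2 and 86.5 CPM with bexarotene and 52.5, 45.3 and 45.4 CPM with vehicle, and Mylip, the ligase that degrades the LDL receptor, at 360.1, 462 and 391.8 CPM and 272, 287 and 320.1 CPM. Their libraries did not overlap, but neither passed the test (adjusted p 0.122 and 0.518). Lpcat3, which remodels phospholipids, had a log2 fold change of 0.32 ± 0.09 (adjusted p 0.237). Srebf1, the transcription factor of fatty acid synthesis, had one of 0.30 ± 0.12 (adjusted p 0.619). The desaturase gene Scd2 went the other way, with 81.2, 87.0 and 70.0 CPM in bexarotene libraries and 136, 129 and 109 CPM in vehicle libraries (log2 difference -0.65 ± 0.17, adjusted p 0.233). Apoe, the main lipid carrier made by microglia, had 3155, 3393 and 2579.8 CPM with bexarotene and 2035, 4955 and 3953 CPM with vehicle. Its vehicle libraries spanned the bexarotene libraries on both sides, and it did not pass the test (log2 fold change -0.26 ± 0.23, adjusted p 0.935).

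The promoters of called genes, from 250 bases before to 50 bases after the transcription start, were searched for the half-site AGGTCA that RXR heterodimers recognise. The exact half-site on either strand was found in 4 of the 32 called genes that have an entry in the RefSeq promoter table (12.5%), in 15.1% of the 10261 tested genes in it and in 18.1% of all 27025. Direct repeats of it on either strand, 1 to 5 bases apart and with at most 1 mismatch per half-site, were found in 5 of the 32 (15.6%), in 8.0% of the tested genes and in 10.1% of all. No difference between these shares was tested. The spacing of 4 that LXR-RXR prefers was then searched with more mismatches in Abca1, because an LXR element in its proximal promoter is known. Its closest match has 3 mismatches over both half-sites, and 21.9% of the 32851 promoters hold one as close. The 3 sequences are printed 5′ to 3′ on the strand of the gene from build GRCm38.p6, an earlier build than that of the counts (GRCm39), with the half-sites in capitals. They are Abca1 (chr4:53159846-53160145, minus strand, half-sites on the strand opposite to the one printed), Rnf145 (chr11:44519127-44519426, plus strand, spacing 3, 2 mismatches in all) and Epha2 (chr4:141300971-141301270, plus strand, spacing 4, 2 mismatches in all). They were chosen after the matches were seen, and a match is a description of the letters only. Abca1 is not among the 5 genes with a repeat. The repeat with the fewest mismatches was in Ccl6 (spacing 1, 1 mismatch in all). Its sequence and those of Slc7a7 and Tnfsf14, with 2 mismatches each, are not printed.
Abca1: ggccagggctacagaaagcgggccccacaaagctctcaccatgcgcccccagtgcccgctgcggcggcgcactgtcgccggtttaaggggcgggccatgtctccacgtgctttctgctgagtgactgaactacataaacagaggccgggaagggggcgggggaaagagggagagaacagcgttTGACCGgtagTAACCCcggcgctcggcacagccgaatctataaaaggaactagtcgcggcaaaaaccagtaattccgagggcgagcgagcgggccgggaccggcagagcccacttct
Rnf145: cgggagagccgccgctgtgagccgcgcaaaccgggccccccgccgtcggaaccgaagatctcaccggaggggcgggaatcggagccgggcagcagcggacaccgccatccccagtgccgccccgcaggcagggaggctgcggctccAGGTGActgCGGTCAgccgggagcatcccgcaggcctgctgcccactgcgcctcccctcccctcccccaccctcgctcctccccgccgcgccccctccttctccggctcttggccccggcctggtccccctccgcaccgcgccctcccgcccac
Epha2: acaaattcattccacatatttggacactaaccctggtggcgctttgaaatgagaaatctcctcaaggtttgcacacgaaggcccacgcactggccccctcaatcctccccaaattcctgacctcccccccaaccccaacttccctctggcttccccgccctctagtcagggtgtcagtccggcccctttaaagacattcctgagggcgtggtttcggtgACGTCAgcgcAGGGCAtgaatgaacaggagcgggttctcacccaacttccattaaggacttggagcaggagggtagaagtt

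Among targets of RAR-RXR, Tgm2 and Cd38 rose. Tgm2, a transglutaminase that crosslinks proteins and is strongly induced by retinoids in myeloid cells, had 365, 378 and 357 CPM with bexarotene, against 83.3, 79.8 and 86.0 CPM with vehicle. The replicates of each group differed little, and the log2 fold change was 2.14 ± 0.27 (adjusted p 0.00192). The SE uses the spread over all 18 libraries, and the aged stroke libraries ranged from 238 to 1192 CPM. Cd38, an enzyme that consumes NAD, had 95.7, 72.5 and 79.1 CPM with bexarotene and 18.7, 33.1 and 26.6 CPM with vehicle (log2 fold change 1.66 ± 0.27, adjusted p 0.0213). Its call was lost without bexarotene library 1 or 3 and without vehicle library 1 or 3. These were 2 of 7 tested members of an 11-gene list with a median log2 fold change of 0.95, while Cyp26a1, Cyp26b1, Rarb and Crabp2 were removed as too low to test. Dhrs3, a retinal reductase, stood at 297, 312 and 307 CPM with bexarotene and 225, 253 and 276 CPM with vehicle, and did not pass the test (log2 fold change 0.28 ± 0.09, adjusted p 0.451). Hic1, a transcriptional repressor, was near the detection floor, with 0, 10 and 5 counts with bexarotene and 3, 0 and 1 counts with vehicle. Of the NAD metabolism list, Cd38 alone was called among 12 tested genes (median log2 fold change 0.09).

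Of 21 tested targets of PPAR-RXR 1 passed the test. That gene was Cpt1a, the carnitine palmitoyltransferase that admits long-chain fatty acids to mitochondria, at 81.0, 70.8 and 85.2 CPM with bexarotene and 52.2, 43.8 and 49.9 CPM with vehicle. Its groups did not overlap (log2 fold change 0.70 ± 0.14, adjusted p 0.0462), and its call was lost when any of the 6 libraries was left out. In all 18 of the 21 members had a positive log2 fold change, with a median of 0.17, where 49.1% of all genes did. Cd36, a scavenger receptor and fatty acid importer, stood at 41.6, 42.0 and 33.9 CPM and 23.5, 28.2 and 29.5 CPM (adjusted p 0.412). Slc25a20, the mitochondrial carnitine carrier, had a log2 fold change of 0.48 ± 0.16, and the beta-oxidation enzymes Acadm and Acaa2 had 0.17 ± 0.08 and 0.25 ± 0.13, with adjusted p of 0.439, 0.761 and 0.790. Pdk4 and Angptl4, strong PPAR targets in other tissues, were close to the floor. Pdk4 had 17, 10 and 8 counts with bexarotene and 3, 3 and 0 with vehicle, and Angptl4 had 3, 28 and 10 counts and 2, 1 and 6 counts.

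No receptor of the RXR family or its partners was called among 13 tested. Over all tested genes 0.258% were called, so this list and those below can hold none at that share. Rxra, the receptor gene with the lowest p, was lower in all 3 bexarotene libraries, at 72.9, 71.2 and 77.3 CPM against 91.0, 90.4 and 102 CPM with vehicle, but did not pass the test (log2 fold change -0.36 ± 0.11, adjusted p 0.385). Nr1h2, which encodes LXR-beta, stood at 69.3, 70.1 and 70.7 CPM with bexarotene and 67.9, 64.1 and 62.7 CPM with vehicle, and Nr1h3, which encodes LXR-alpha, at 1.34, 0.765 and 1.42 CPM and 0.725, 1.57 and 2.49 CPM. Cholesterol synthesis and uptake genes stayed near 0, with none of 21 called and a median log2 fold change of -0.01. Insig1, a sterol sensor that restrains the pathway, had the lowest p of the list (log2 fold change 0.48 ± 0.19, adjusted p 0.659). Among genes of oxysterol metabolism, none of 7 was called. Gpr183, an oxysterol receptor that guides immune cell migration, missed the threshold, with 247, 200.2 and 179 CPM in bexarotene libraries and 357, 320.1 and 322 CPM in vehicle libraries (log2 fold change -0.67 ± 0.14, adjusted p 0.0610). Ch25h, a hydroxylase that makes an oxysterol, had 6.18, 6.20 and 1.83 CPM and 6.25, 10.96 and 11.1 CPM (adjusted p 0.638).

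**Figure D2:**
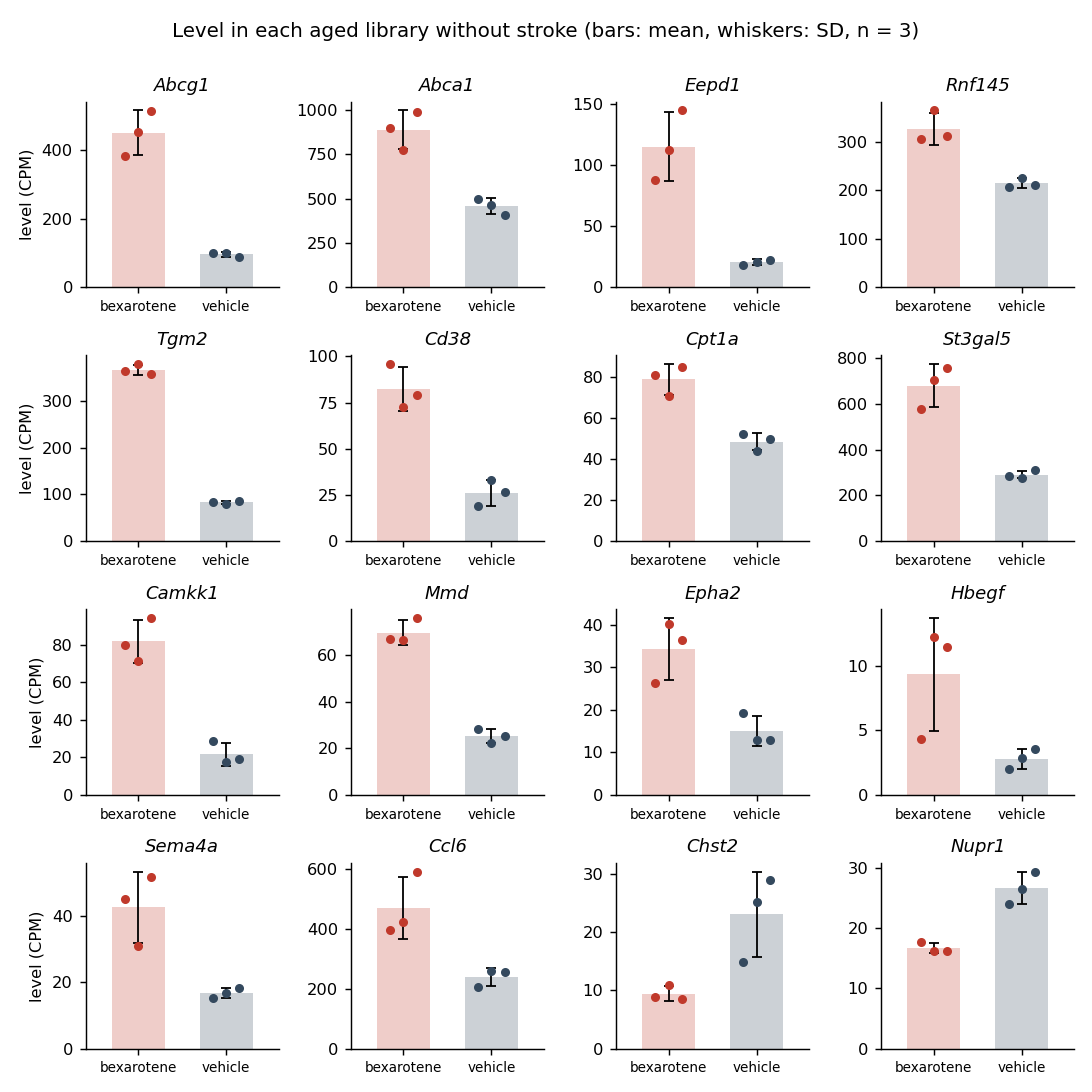
Level of 16 called genes in each aged library without stroke (CPM), with bexarotene at left and vehicle at right in every panel. Points are libraries, bars are means and whiskers the SD of 3. No panel has overlapping groups, and the 2 panels with lower bexarotene levels are Chst2 and Nupr1.

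Several other called genes, also grouped here only by what they encode, act in membrane lipids and metabolism. St3gal5, the sialyltransferase that makes ganglioside GM3, stood at 576, 706 and 758 CPM with bexarotene and at 285, 278 and 310.2 CPM with vehicle (log2 fold change 1.22 ± 0.12, adjusted p 8.28e-05). Every bexarotene library had more than any vehicle library by a wide margin. Acss1, the mitochondrial acetyl-CoA synthetase, rose by a log2 fold change of 0.74 ± 0.13 (adjusted p 0.0230). Ltc4s, which makes leukotriene C4, had 108, 109 and 110.0 CPM with bexarotene and 76.8, 75.8 and 74.8 CPM with vehicle, a difference of 0.52 ± 0.09 on the log2 scale (adjusted p 0.0257). Slc7a7, an exporter of cationic amino acids, had 186, 185 and 187 CPM and 135, 134 and 138 CPM (log2 fold change 0.46 ± 0.08, adjusted p 0.0257). For both genes the difference was small and the replicates were tight.

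Some called genes encode signalling proteins, a grouping made after the calls were seen and not tested as a set. Camkk1, a kinase upstream of the calmodulin-dependent kinases, rose to 80.1, 71.4 and 94.2 CPM with bexarotene, against 28.8, 17.5 and 19.0 CPM with vehicle (log2 fold change 1.91 ± 0.25, adjusted p 0.00212). Rasgef1b, an exchange factor for small GTPases, had 94.6, 138 and 139 CPM and 52.3, 67.1 and 60.2 CPM (log2 fold change 1.05 ± 0.15, adjusted p 0.00269). Kcnip3, a calcium sensor, and Pik3cd, the leukocyte catalytic subunit of phosphoinositide 3-kinase, rose by 1.00 ± 0.18 and 0.71 ± 0.14 on the log2 scale (adjusted p 0.0257 and 0.0443). Camk2b, a calmodulin-dependent kinase subunit, had 35, 39 and 33 counts in the bexarotene libraries and 1, 10 and 5 counts in the vehicle libraries (adjusted p 0.0424). The ratio of its summed counts per total was 6.85 (exact 95% interval 4.03 to 12.4, counting error only).

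Other called genes encode surface and secreted proteins. Epha2, an ephrin receptor kinase, had 26.3, 40.3 and 36.5 CPM in bexarotene libraries and 19.2, 12.9 and 12.95 CPM in vehicle libraries (log2 fold change 1.19 ± 0.17, adjusted p 0.00237). Mmd, a membrane protein that rises as monocytes become macrophages, had 67.0, 66.5 and 76.1 CPM with bexarotene and 28.5, 22.4 and 25.5 CPM with vehicle (log2 fold change 1.45 ± 0.17, adjusted p 0.000301). Sema4a, a semaphorin that acts on immune cells, had 45.1, 30.8 and 51.5 CPM and 15.2, 16.7 and 18.2 CPM (log2 fold change 1.34 ± 0.22, adjusted p 0.0154). In each of these genes all bexarotene libraries exceeded all vehicle libraries, with bexarotene library 1 the nearest to vehicle for Epha2 and library 2 for Sema4a. Lfng, which modifies Notch receptors, spread widely with bexarotene, at 93.6, 205 and 143 CPM, against 68.1, 56.7 and 70.9 CPM with vehicle (log2 fold change 1.18 ± 0.23, adjusted p 0.0462). Hbegf, a ligand of the EGF receptor, had 4.32, 12.2 and 11.5 CPM with bexarotene and 1.99, 2.84 and 3.55 CPM with vehicle (log2 fold change 1.74 ± 0.36, adjusted p 0.0498). It was the gene called among 12 tested growth and repair factors, whose median was -0.09, and Igf1 had a log2 fold change of -0.62 ± 0.39 (adjusted p 0.883). Tcim, a small regulator of transcription, rose to 20.5, 18.3 and 27.5 CPM with bexarotene, against 7.06, 4.403 and 7.77 CPM with vehicle (adjusted p 0.0323).

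Fli1, an ETS transcription factor of blood cells, rose to 476, 525 and 498 CPM with bexarotene, against 349.6, 359 and 346 CPM with vehicle (log2 fold change 0.51 ± 0.10, adjusted p 0.0498). Genes of the cytoskeleton and of membrane traffic were also called higher. Among them were Tagln2, an actin-binding protein, Baiap2, which bends membranes at protrusions, Coro2a, a coronin, and Cyth4, an exchange factor of ARF GTPases. Their log2 fold changes were 0.90 ± 0.16, 1.14 ± 0.21, 0.85 ± 0.17 and 0.43 ± 0.08. Also called higher were Dennd3, Snx25, Ssx2ip, Uhrf1bp1, N4bp2l1 and Smim10l2a, with log2 fold changes of 0.64 to 1.97.

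The 3 genes that fell were Chst2, Nupr1 and Tent5c. Chst2, a sulfotransferase of cell-surface glycans, had 8.85, 10.9 and 8.52 CPM in bexarotene libraries and 14.9, 25.1 and 29.0 CPM in vehicle libraries (log2 fold change -1.28 ± 0.26, adjusted p 0.0474). Vehicle library 1 was the nearest to the bexarotene libraries. Nupr1, a stress-induced chromatin protein, had 17.7, 16.2 and 16.1 CPM and 24.0, 26.4 and 29.3 CPM (log2 fold change -0.67 ± 0.13, adjusted p 0.0371). It was the member called among 11 tested genes of the integrated stress response, whose median was -0.20, and Atf4, the central transcription factor of that response, had 71.7, 71.4 and 65.5 CPM and 79.1, 77.6 and 80.8 CPM (adjusted p 0.821). Tent5c, a poly(A) polymerase, had 108, 123 and 105 CPM with bexarotene and 163, 157 and 172 CPM with vehicle (log2 fold change -0.55 ± 0.11, adjusted p 0.0498). None of the 3 was called when any bexarotene library was left out, or without vehicle library 2 or 3. Tent5c was not called without vehicle library 1 either.

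The gene lists of microglial state are described by their members, and no list was tested as a set in edgeR. Of 16 homeostatic genes 12 had negative log2 fold changes, and the median was -0.08. Of all tested genes 49.1% had positive values. P2ry13, a purinergic receptor, stood at 2176, 2021 and 1756 CPM with bexarotene and 2783, 2468 and 2437 CPM with vehicle, without overlap, but did not pass the test (log2 fold change -0.37 ± 0.15, adjusted p 0.635). Among 21 disease-associated microglial genes Ccl6, a chemokine, was called higher, at 398, 422 and 589 CPM with bexarotene and 206, 259 and 256 CPM with vehicle (log2 fold change 0.97 ± 0.19, adjusted p 0.0474). The other 20 were not called, 18 of the 21 had negative values and the median was -0.22. Vehicle library 1 was the lowest of the vehicle libraries for all 21 of these genes, and in 13 of them every bexarotene library was below vehicle libraries 2 and 3, a pattern singled out after the values were seen. Over all tested genes these shares were 37.4% and 13.3%. Spp1, which encodes osteopontin, shows the pattern, with 116, 132 and 95.3 CPM in bexarotene libraries and 79.97, 514 and 346 CPM in vehicle libraries. Its log2 fold change was -1.45 ± 0.51 (adjusted p 0.558), and -1.91 without vehicle library 1 (adjusted p 0.0555). Over all alternatives its adjusted p ran from 2.84e-23 to 1.00.

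**Figure D3:**
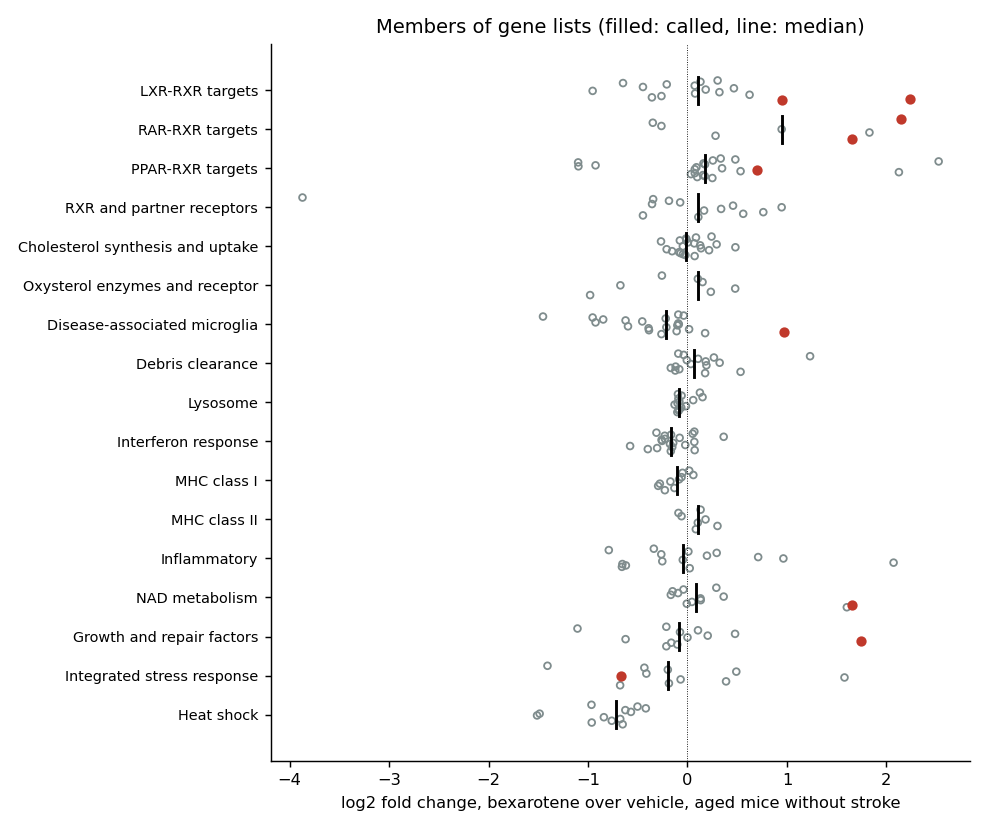
Each circle is a tested member of a gene list, placed by its log2 fold change, bexarotene over vehicle, in aged mice without stroke. Filled circles are called genes and the vertical line is the list's median, from -0.72 for heat shock to 0.95 for RAR-RXR targets.

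Immune and clearance lists held no called gene. The share called over all tested genes was 0.258%, so lists of this size can hold none at that share. None was called among 16 tested genes of debris clearance, 14 of the lysosome, 20 interferon-induced genes, 10 genes of MHC class I presentation, 7 of class II and 15 inflammatory genes. Interferon-induced genes had a median of -0.17 with 15 of 20 negative, and class I genes one of -0.11 with 8 of 10 negative. Of all tested genes 49.1% had positive log2 fold changes. Timd4, a receptor for phosphatidylserine on dying cells, had 9.37, 6.80 and 3.65 CPM with bexarotene and 2.81, 2.05 and 3.55 CPM with vehicle (log2 fold change 1.23 ± 0.34, adjusted p 0.271). Trem2, the lipid receptor of microglia, stood at 1161, 1295 and 1085 CPM and 1114, 1282 and 1239 CPM (log2 fold change -0.04 ± 0.11). Tnf had 5.97, 3.57 and 4.87 CPM with bexarotene and 10.5, 6.07 and 8.15 CPM with vehicle, and Il6 had 20.4, 24.7 and 30.6 CPM and 19.3, 13.6 and 13.3 CPM. These cytokine genes differed in opposite directions and neither passed the test (adjusted p 0.551 and 0.581). Of the 15 inflammatory genes 3 were higher and 5 lower without overlap between the groups (6.47% and 5.32% of all tested genes). An unadjusted p below 0.05 was reached by 7 of the 15, against 6.52% of all tested genes. The list summed to 901, 872 and 885 CPM with bexarotene and 917, 1018 and 917 CPM with vehicle (exact two-sided permutation p = 0.1). All 12 heat shock genes had negative log2 fold changes, with a median of -0.72 and none called. Of the 12, 8 had an unadjusted p below 0.05 and 2 were lower without overlap between the groups (6.52% and 5.32% of all tested genes). The summed level of the 12 was 4137, 3437 and 3102 CPM with bexarotene and 3873, 4828 and 8544 CPM with vehicle. The sums thus overlapped between the groups and vehicle library 3 was the highest. Immediate early genes, which respond to handling, had a median of 0.33 with none of 16 called.

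The summed levels of neutrophil and of monocyte markers did not overlap between the treatments, as was the case for 10 of the 33 lists, and no marker of either list was called. The protocol depletes Ly6G-bearing cells, yet the 14 neutrophil markers summed to 1558, 1076 and 2100 CPM with bexarotene and to 954, 861 and 686 CPM with vehicle (exact two-sided permutation p = 0.1, the smallest that 3 against 3 allows). Of the 14 markers 13 had positive log2 fold changes, where 49.1% of all tested genes did, and the median was 1.65. In 10 of them every bexarotene library was above every vehicle library, against 6.47% of all tested genes. Markers of the same cells are not separate results. S100a9, a calcium-binding protein of neutrophil granules, had 231, 151 and 378 CPM with bexarotene and 91.5, 84.7 and 47.5 CPM with vehicle (adjusted p 0.792). Elane, a granule protease, was at 0 in vehicle library 3 and no marker was at 0 in all libraries of a group. The 11 monocyte markers summed to 402, 352 and 451 CPM with bexarotene and 285, 288 and 296 CPM with vehicle (exact permutation p = 0.1), with a median log2 fold change of 0.68 and none called. Padi4, a histone-citrullinating enzyme abundant in neutrophils, was among the genes called higher, at 3.91, 4.76 and 8.72 CPM with bexarotene and 1.36, 1.57 and 0.768 CPM with vehicle (log2 fold change 2.22 ± 0.44, adjusted p 0.0462). Tnfsf14, the cytokine LIGHT, had 13, 26 and 28 counts with bexarotene and 2, 4 and 1 counts with vehicle (adjusted p 0.0462). The ratio of its counts was 9.8 (exact 95% interval 4.51 to 25.3, counting error only). An alternative fit, chosen after the data were seen, took as a covariate the mean log2 CPM of the tested neutrophil markers in each library. With it 8 of the 40 genes were called, and Padi4 and Tnfsf14 were not among them (log2 fold change 1.71 and 2.95, adjusted p 0.383 and 0.337). With heat shock genes as the covariate, averaged in the same way, 8 of the 40 were also called. Padi4 (1.78, adjusted p 0.621) and Tnfsf14 (2.64, adjusted p 0.593) were again not among them, and each was called under 7 of the 19 alternative settings. The part of these cells in the results was not tested beyond these fits.

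The summed markers of astrocytes, oligodendrocytes and endothelium did not overlap between the groups either, each at an exact permutation p of 0.1. Astrocyte markers summed to 495 to 729 CPM with bexarotene and 336 to 484 CPM with vehicle, nearly all of it Slc1a3, a glutamate transporter, at 520.4, 471 and 722 CPM and 310.0, 319.9 and 468 CPM. Of the 7 astrocyte markers 5 had negative log2 fold changes, and the median was -0.10. Gfap, the defining astrocyte filament, was at or below 1.18 CPM in all 6 libraries. Oligodendrocyte markers summed to 204 to 219 CPM with bexarotene and 229 to 264 CPM with vehicle, and endothelial markers to 36.0 to 44.1 CPM and 46.1 to 51.4 CPM. No member of these lists was called, and their part in the results was not tested.

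**Figure D4:**
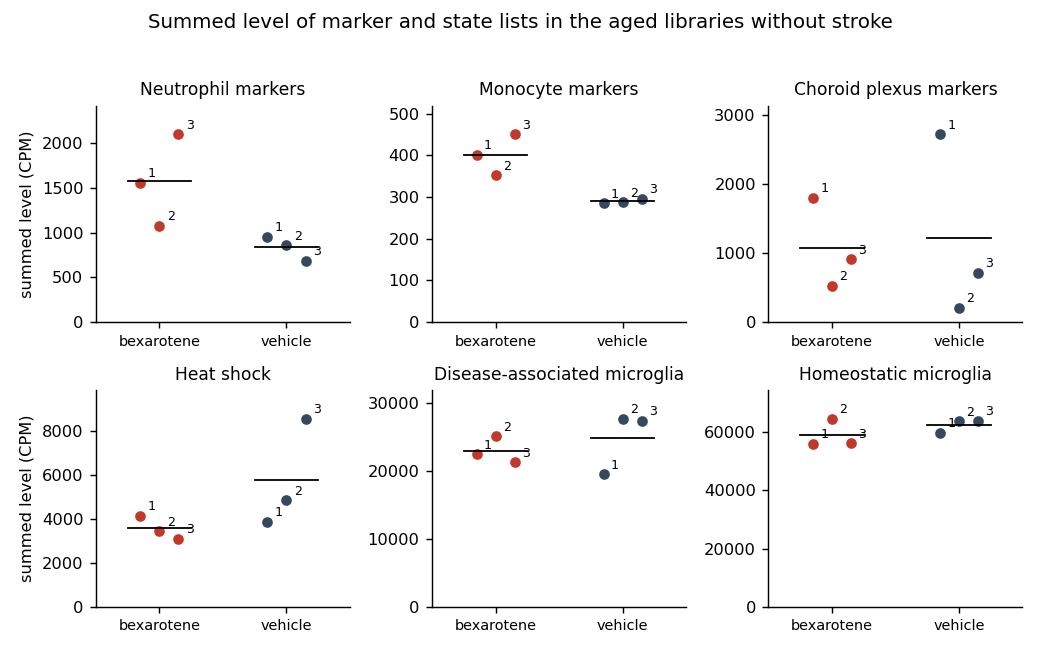
Summed level (CPM) of 6 gene lists in the 6 aged libraries without stroke, bexarotene at left and vehicle at right, with the replicate number beside each point and a line at the mean. Neutrophil and monocyte markers do not overlap between the groups, vehicle library 1 is highest for choroid plexus markers (2721 CPM) and vehicle library 3 for heat shock genes (8544 CPM).

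Most genes called in aged mice were also called in young mice. Bexarotene changed 79 genes in young mice (0.509%), 65 higher (0.419%) and 14 lower (0.0902%), from libraries shared with neither aged group, and 26 genes were called at both ages, all with the same sign. They were 65% of the genes called in aged mice and 32.9% of those called in young mice. Both comparisons use the spread estimated over all 18 libraries. Of the 40 genes called in aged mice, 38 had the same sign in young mice. Of the 37 called higher 35 had a positive log2 fold change in young mice, where 7779 of the 15528 tested genes did. The median of the 37 was 1.05 in aged mice, which chose them, and 1.00 in young mice. Abcg1 rose by 2.23 ± 0.14 in aged and 2.23 ± 0.14 in young mice on the log2 scale, and Tgm2 by 2.14 ± 0.27 and 2.15 ± 0.27. Hbegf, at 4.32, 12.2 and 11.5 CPM in aged bexarotene libraries, had 18.5, 26.6 and 24.6 CPM in young bexarotene libraries and 4.20, 4.72 and 3.14 CPM in young vehicle libraries (log2 fold change 2.54 ± 0.35). Tested directly, the difference between the effects at the 2 ages was called for 0 of 15528 genes by edgeR (456 at an unadjusted p below 0.05), and for 5 by DESeq2. Tnfsf14, Padi4, Fam107b and Gm7665 were among those 5, and with Fblim1 they had the lowest p in edgeR. In Fam107b the log2 fold change was 0.15 ± 0.10 in aged and -0.52 ± 0.10 in young mice (difference 0.67 ± 0.15 SE, adjusted p 1.00). Fblim1 went the other way, with 0.11 ± 0.16 and 1.06 ± 0.17, and Gm7665 had 1.95 ± 0.49 and -1.01 ± 0.51. Padi4 had 3.91, 4.76 and 8.72 CPM in aged bexarotene libraries and 1.85, 1.91 and 3.62 CPM in young ones (log2 fold change -0.58 ± 0.42 in young mice).

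In aged mice after stroke fewer genes were called, and the log2 fold change of 35 of the 37 genes was smaller in size than without stroke, the setting that chose them. Over all tested genes it was smaller in size after stroke for 8143 of 15528. In young mice it was smaller in size for 18 of the 37 and for 7343 of all tested genes. After stroke 9 genes were called (0.058%), 6 of them among the 37 called higher without stroke, from deeper libraries of 16206144 to 29359943 counts. The 37 genes had a median log2 fold change of 1.05 without stroke and of 0.35 after stroke. After stroke 33 of them had a positive value, as did 7918 of the 15528 tested genes. Cd38 had 1.66 ± 0.27 without stroke and 0.00 ± 0.25 after stroke, where it stood at 90.9, 105 and 189 CPM with bexarotene and 125, 145 and 114 CPM with vehicle. Sema4a had 1.34 ± 0.22 and 0.07 ± 0.20. The difference between the effects was called for 0 genes by edgeR (638 at an unadjusted p below 0.05) and for 9 by DESeq2. Those 9 included Abcg1, Cd38, Eepd1, Camk2b, Padi4, Tnfsf14, Frmd6 and Hecw2. In edgeR the lowest p belonged to Abcg1, whose effect was larger without stroke by 0.95 ± 0.18 on the log2 scale (SE, adjusted p 0.535). It was followed by Frmd6, with -0.02 ± 0.22 without and -1.55 ± 0.21 after stroke. Fam43a had 1.13 ± 0.24 and -0.36 ± 0.23. Hecw2 had 5, 4 and 12 counts with bexarotene and 0 in each vehicle library without stroke. This was at least 7.17-fold higher against a floor of 3 counts over the vehicle group. Its effect without stroke was not called by edgeR (adjusted p 0.0805).

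**Figure D5:**
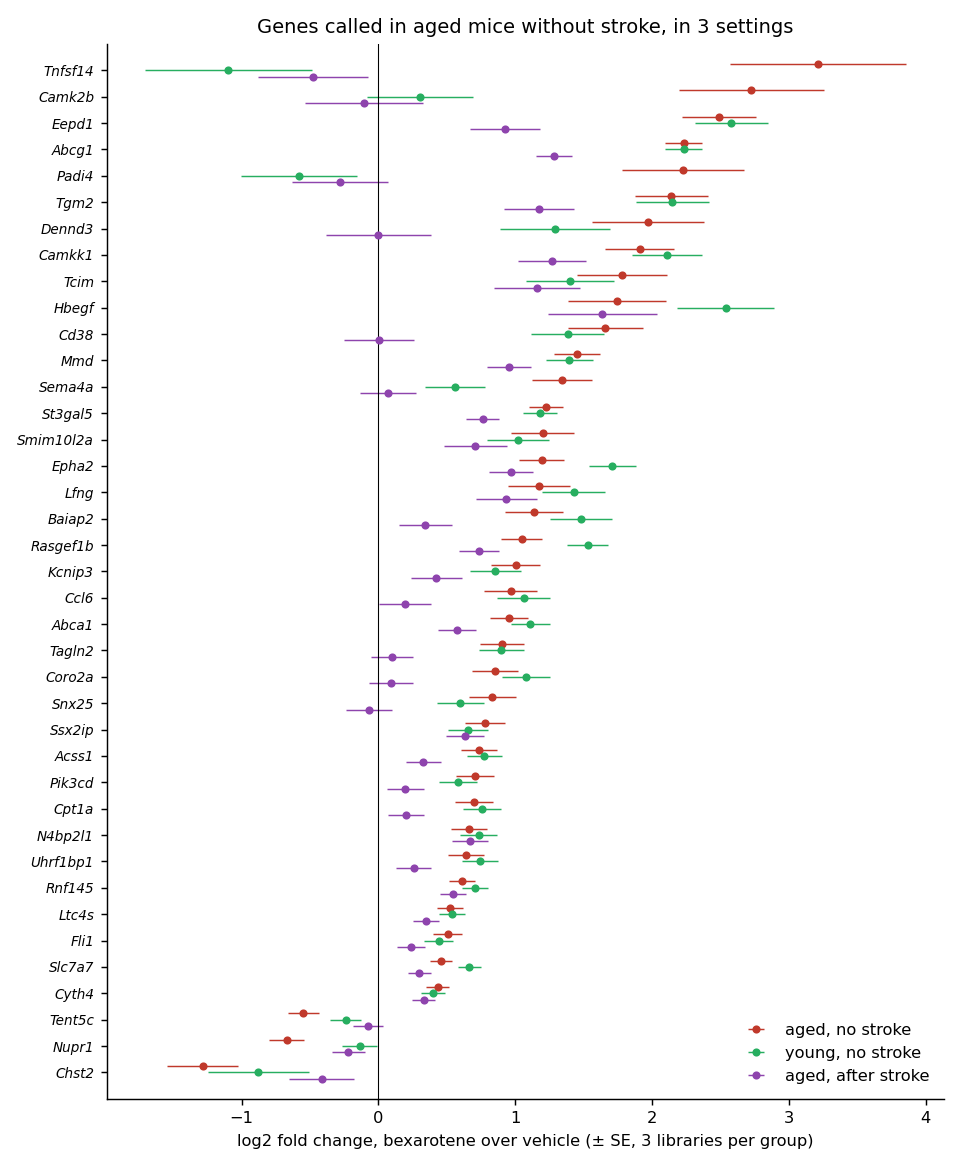
Log2 fold change, bexarotene over vehicle, of 39 of the 40 genes called in aged mice without stroke. It is drawn for that setting, for young mice and for aged mice after stroke (± SE from the fit of all 18 libraries, 3 per group). Most genes called higher lie at like values in aged and young mice without stroke and nearer to 0 after stroke, while Tnfsf14 and Padi4 have negative values in the other two settings.

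The series title names changes that come with age, and some called genes can be set beside their levels in young mice. The comparison of aged with young vehicle shares the aged vehicle libraries with the bexarotene comparison, so values are given side by side and nothing is counted between them. A chance deviation of the shared libraries puts aged bexarotene and young vehicle on the same side of them. That comparison called 264 genes (1.7%). Chst2 had 8.85, 10.9 and 8.52 CPM in aged bexarotene libraries, 14.9, 25.1 and 29.0 CPM in aged vehicle libraries, and 2.58, 4.18 and 2.62 CPM in young vehicle libraries (aged over young vehicle, log2 2.91 ± 0.30, adjusted p 1.6e-05). Its bexarotene level lay between those of the aged and young vehicle groups. Camk2b stood at 3.60, 3.31 and 3.35 CPM with bexarotene, 0.0906, 0.978 and 0.480 CPM with vehicle, and 11.5, 13.9 and 11.1 CPM in young vehicle libraries (aged over young vehicle, log2 -4.55 ± 0.52, adjusted p 4.9e-05). Spp1, not called with bexarotene, had 8.30, 12.3 and 5.76 CPM in young vehicle libraries, below all 6 aged libraries (aged over young vehicle, log2 5.19 ± 0.63, adjusted p 0.000471). Cd36 had 47.3, 58.4 and 46.7 CPM in young vehicle libraries, above all 6 aged libraries (aged over young vehicle, log2 -0.91 ± 0.16, adjusted p 0.00407). Other called genes lay further from the young level with bexarotene. Baiap2 had means of 11.9 CPM with aged bexarotene, 5.40 with aged vehicle and 3.51 with young vehicle. Coro2a had 44.0, 24.4 and 17.1 CPM, and Rasgef1b 124, 59.9 and 45.2 CPM. These genes are examples, and a common direction was not tested.

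The authors' deposited table for this comparison lists 149 genes, 122 higher and 27 lower with bexarotene. All 149 were tested here with the same sign, and they include each of the 40 genes called here. The authors' deposited table also lists Arl4c, Mylip and Scd2 of the LXR-RXR list, Gpr183, P2ry13, and 6 neutrophil markers (Lcn2, Mmp9, Camp, S100a9, Retnlg and Cxcr2), none of which was called here.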

How the data were processed

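Whole-number, unnormalized counts for 57010 Ensembl genes in the 18 libraries were deposited by the authors, and every library column was used. The submitters' processing notes name GRCm39 as build, with the tools STAR 2.7.10a, Trimmomatic 0.40, R 4.4.2 and GATK. Libraries were made with a SMART-Seq kit, per the labels' protocols. What each tool did, which annotation was used and whether strand was used in counting are not stated in the labels or headers, so overlapping and antisense genes may share reads. The authors' deposited table of the comparison holds a mean normalized signal (baseMean), a log2 fold change with its error, and p-values before and after adjustment, and it was used only where named. GENCODE M21 gave symbols for 52029 genes. The 4980 genes without one held 0.334% of counts and were tested under their identifiers.

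The count test was edgeR 4.0.16 (limma 3.58.1, R 4.3.3). After filterByExpr 15528 genes remained, TMM factors were 0.937 to 1.05, and all 18 libraries entered a single robust quasi-likelihood fit that left 12 residual degrees of freedom. A gene was called at a Benjamini-Hochberg adjusted p below 0.05 over all tested genes, and adjusted p-values are from this edgeR test unless another is named. Standard errors come from the F statistic of this fit. They and the adjusted p-values thus use a spread estimated over all 18 libraries, not over the 6 alone. A floor of 3 counts corresponded to 0.253 to 0.321 CPM of the library total in the 6 libraries, and intervals and floors cover counting error only. Replicates of the 2 groups differed by more than sampling noise (chi-square per degree of freedom 6.71 to 15.4). The labels name biological replicates without naming animals, so p-values measure the spread between these samples. The steps were tested on simulated data. DESeq2 1.42.0, limma voom, other scalings, filters, subsets and covariates were alternatives.

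The comparison and the 33 gene lists were chosen with earlier results of these data known. By rule the text names, of the called genes of each sign, the 12 of largest fold change that reach 5 CPM in a group and do not overlap. The rule adds the lowest-p members of the receptor-target lists and of lists with a called member, a set of RXR, lipid and stress genes, and the 5 lowest-p genes of each difference of effects. Other called genes were named as a group, and 1 called gene is not reported here. Marker and immune genes named beside their lists, with Insig1, Ch25h, Timd4, Trem2, Tnf and Il6, were chosen after their values were seen.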

Additional observations from a re-analysis of the deposited data

How the results depend on the processing

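The count of 40 called genes (37 higher, 3 lower) depended on the setting. It was 24 (23 and 1) with RLE scaling, 97 (79 and 18) with DESeq2, 18 (18 and 0) with limma voom and 339 (237 and 102) with no filter on low counts. It was 28 (27 and 1) with the 2 aged groups alone, 23 (23 and 0) with the 12 libraries without stroke, and 26 (21 and 5) without every library numbered 1. With neutrophil markers or heat shock genes as a covariate, both chosen after seeing the data, it was 8 (8 and 0) each. Leaving out 1 of the 6 libraries gave 9 to 35 calls, 9 to 32 higher and 0 to 3 lower. Library totals, a filter at 10 CPM and a choroid plexus covariate gave 39, 45 and 44. The cause of these shifts was not tested.

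The labels do not say what a replicate number marks, and the numbers were not taken as pairs because not every same-numbered pair of aged bexarotene and vehicle libraries deviated together from its group means (correlations of -0.06 to 0.26, the lowest in pair 3). The numbers may still mark something shared: in 3 of 15 pairings of groups, young bexarotene with young vehicle among them (0.14 to 0.28), every same-numbered correlation was above 0.1, and library 1 had the highest choroid plexus markers in all 4 groups without stroke. With a replicate block 50 genes were called (46 higher and 4 lower), 37 of the 40 among them, and the differences of effects gave 0.

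The difference of the effect between ages was called for 0 genes, 5 with DESeq2 and 138 with no filter, and that between stroke and no stroke for 0 genes, 9 with DESeq2 and 256 with no filter. No called gene changed sign under any alternative. Among named genes that were not called, Apoe, Nr1h3, Frmd6, Fblim1 and Stra6 changed sign under at least 1 (Apoe to 0.02 on the log2 scale without vehicle library 2). Over named genes and alternatives, 1216 results stayed on their side of the threshold, 339 lost their call and 25 gained one. With 3 libraries per group, a gene that missed the threshold is not shown to be unaffected.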

Other observations

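Lists not described above held no called gene, where 0.258% of all tested genes were called. Among 14 tested genes of cell division the median log2 fold change was 0.08, among 13 mitochondrially encoded genes -0.06, among 11 markers of border-associated macrophages 0.18, among 5 markers of B cells 0.06, among 2 markers of pericytes -0.73, among 7 choroid plexus markers -0.21 and among 5 red cell markers 0.77. Cd209f, a lectin of border-associated macrophages, had 83.0, 88.1 and 74.7 CPM in bexarotene libraries and 52.6, 55.4 and 48.0 CPM in vehicle libraries, without overlap, and did not pass the edgeR test (adjusted p 0.508). Klf2, a transcription factor of endothelium and myeloid cells, had 52.1, 51.1 and 69.7 CPM with bexarotene and 34.0, 24.4 and 39.7 CPM with vehicle (adjusted p 0.462).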
